A study of Caenorhabditis elegans with 6 samples.

Results

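The microRNA (miRNA) cel-mir-246, called mir-246 from here, is 1 of 253 miRNA genes counted in small RNA libraries from dissected Caenorhabditis elegans gonads. It was chosen by its measured difference between the sexes in these same libraries, so its levels are described here and carry no test. Hermaphrodite gonads and male gonads gave 3 libraries each. The animals of both groups were untreated adults of N2, the wild-type laboratory strain, and differed by sex. The adult hermaphrodite gonad makes oocytes and holds sperm made earlier, while the male gonad makes sperm. The labels name the cell type as germline, no sorting is described, and neither the number of gonads in a library nor the age in hours is given in the sources used here. The series asks which miRNAs are found in gonads and which are enriched in the male.

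An miRNA is cut from a hairpin transcript, is loaded into an Argonaute protein and lowers the output of messenger RNAs that pair with its 5′ end. In C. elegans, genetic work placed mir-246 among the miRNAs that lengthen adult lifespan and raise stress resistance. Members of the mir-35 family, which serve as the reference for the hermaphrodite gonad here, are abundant in oocytes and embryos and are needed for embryonic development.

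In the WBcel235 annotation the mir-246 gene lies on the plus strand of chromosome IV and overlaps 0 other annotated genes. Its annotated hairpin is 97 bases long, with a 23-base arm on the 5′ side and a 21-base arm on the 3′ side. The next gene on its 5′ side is fic-1, which encodes an enzyme that attaches AMP to proteins, and the next on its 3′ side is a pseudogene. Both are on the same strand. The deposited row carries no arm name, so the counts of the arms cannot be separated.

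The hermaphrodite libraries were deeper than the male ones, with totals of 2268159 to 2621478 miRNA counts against 245399 to 597166. Depth and sex therefore cannot be told apart, and the labels name no batch. The sex labels were checked with miRNAs known to be abundant in each germline. The 8 members of the mir-35 family together took 18.1% to 19.2% of hermaphrodite counts and 0.0550% to 0.0638% of male counts. The 5 mir-2208 and mir-2209 genes, known from the male germline, took 0.0432% to 0.0503% and 11.6% to 19.6%, with the lowest male value in replicate 3. Each pair of libraries of a sex differed by more than counting noise. The p-values below set the difference between the sexes against the spread between these libraries, which may be technical.

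In hermaphrodite gonads mir-246 was among the most counted miRNAs. It had 203110, 140649 and 184397 counts in replicates 1 to 3, which were 7.75%, 6.01% and 8.13% of all miRNA counts. The 95% Wilson intervals of these shares, which cover counting error only, reached from 5.98% to 6.04% for replicate 2 and from 8.09% to 8.17% for replicate 3. Replicate 2 therefore lay below the other hermaphrodite libraries by more than counting error. The mean share was 7.29% ± 1.13 (SD, n = 3), and mir-246 ranked 4, 7 and 5 of 253 in the 3 libraries.

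For mir-246 there were 3565, 2627 and 436 counts in male replicates 1 to 3. Their shares were 0.597%, 0.597% and 0.178%, with Wilson intervals of 0.578% to 0.617%, 0.574% to 0.620% and 0.162% to 0.195%. Male replicates 1 and 2 agreed within counting error, and replicate 3 lay below both. The male mean was 0.457% ± 0.242 (SD, n = 3), and the ranks were 22, 22 and 28 of 253. A limit of 3 counts stood at most at 12.2 CPM (counts scaled to a common library total), in male replicate 3, where mir-246 was at 1777 CPM. In both sexes mir-246 was thus counted well above the limit that a count of 0 allows.

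**Figure D1:**
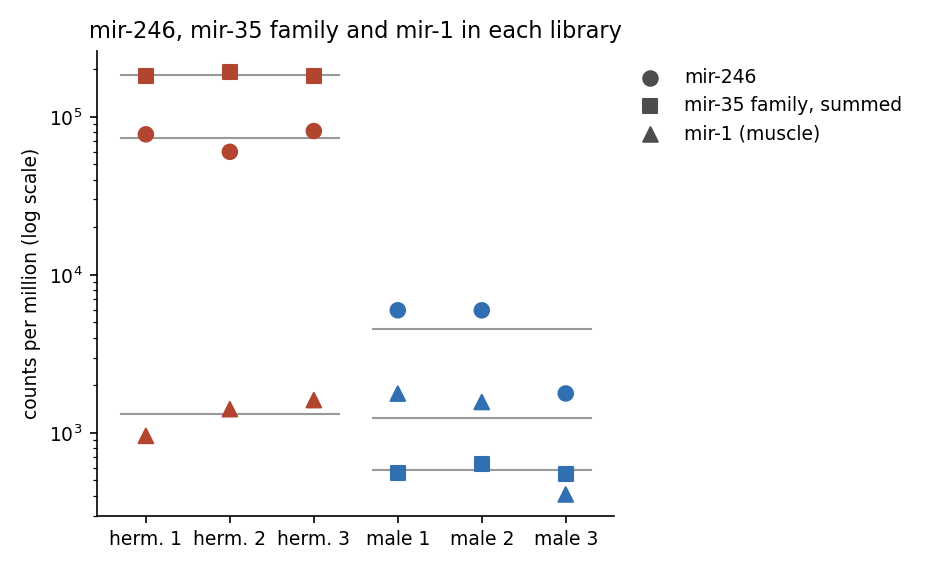
CPM of mir-246 (circles), the summed mir-35 family (squares) and the muscle miRNA mir-1 (triangles) on a log axis, for hermaphrodite (red) and male (blue) libraries; grey lines are the means of a sex. The lowest hermaphrodite library, at 60054 CPM of mir-246, lies above the highest male library, at 5970 CPM, and the summed mir-35 family crosses mir-246 between the sexes.

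Hermaphrodite and male libraries did not overlap in mir-246. The lowest hermaphrodite share was 10.1-fold higher than the highest male share, and the ratio of the mean shares was 16.0, or 12.2 without male replicate 3. After trimmed mean of M values (TMM) scaling, which corrects library size for highly counted miRNAs, the hermaphrodite values were 109989, 107207 and 91005 scaled CPM. The male values were 4185, 3675 and 1451 scaled CPM. On this scale the means were 102734 ± 10252 (SD, n = 3) and 3104 ± 1453 (SD, n = 3), a 33.1-fold difference, or 26.1-fold without male replicate 3. In the authors' normalized table the hermaphrodite values were 116756, 104663 and 116225 and the male values 3174, 3260 and 1375, a 43.2-fold difference of means. The size of the difference thus depended on the scaling between libraries, while its direction did not in any scaling tried. As these are bulk gonads, fewer cells that hold mir-246 and less mir-246 in each cell cannot be told apart.

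The fitted log2 fold change of mir-246 was -5.05 (SE 0.41, male over hermaphrodite) in edgeR's model over the 124 miRNAs that passed the filter on low counts. Of these 124, 31 were called lower in male gonads at an adjusted p under 0.05 (25.0%), and 38 higher (30.6%), 55.6% in all. In 36 of the 124 (29.0%) the lowest hermaphrodite value exceeded the highest male value in scaled CPM, as for mir-246. Since the gene was chosen on this contrast, nothing is read from its place among them. Library totals as the scaling gave 69 higher and 20 lower in male gonads, and leaving the mir-35 family out of the TMM factors gave 28 and 36. The median log2 fold change of the tested miRNAs moved with the scaling, from 0.15 with TMM to 1.18 with library totals and -0.35 without the mir-35 family in the factors. A scaling moves all miRNAs by nearly the same amount, so across scalings the distance of mir-246 from this median is almost fixed in advance. With mir-246 below the median, this distance was between 5.02 and 5.48 log2 units over TMM and 18 alternatives, and nothing is read from it.

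In the order of log2 fold changes mir-246 was the 7th lowest. Lower still were mir-39 at -9.55 (SE 0.51), mir-35 at -9.45 (SE 0.50), mir-37 at -9.26 (SE 0.53) and mir-36 at -8.73 (SE 0.53), all of the mir-35 family. The other two places below it were held by mir-40 of the same family, with 2, 1 and 1 male counts, and by mir-8196b, with 0 in each male library, so their fitted values rest on the floor. Next above it came mir-38, with 0, 0 and 2 male counts, and mir-42, with 7, 3 and 0 male counts, again both of the family. The fitted change of mir-246 was separated from those of mir-39, mir-35, mir-37 and mir-36 by more than 3 log2 units, and it had far more male counts than any family member.

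**Figure D2:**
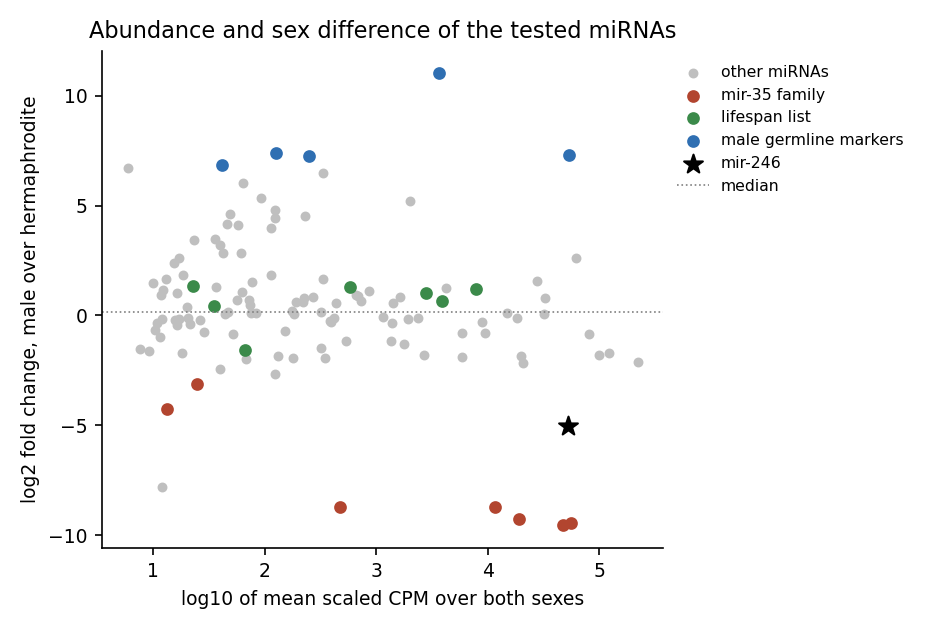
Mean scaled CPM over both sexes (log10, x axis) against the log2 fold change of male over hermaphrodite gonads (y axis) for the 124 tested miRNAs, with mir-246 as a star and the lists in colour; the dotted line is the median. The star lies at -5.05, between the median at 0.15 and the abundant members of the mir-35 family, which reach -9.55.

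Ratios taken within a library need no scaling between libraries. Among tested miRNAs with a count in every library, they place mir-246 between 5 members of the mir-35 family and all others. In hermaphrodite libraries there were 42.8, 31.2 and 44.9 counts of mir-246 for every 100 counts of the summed mir-35 family. In male libraries there were 1074, 935 and 323. The means were 39.6 ± 7.39 (SD, n = 3) and 777 ± 399 (SD, n = 3), and the ranges did not overlap. The relative level of mir-246 was thus 19.6-fold higher in male gonads by the ratio of means. Without male replicate 3 the male mean was 1004. Put another way, the mean male share of the mir-35 family was 0.315% of its hermaphrodite share, and that of mir-246 was 6.27% of its hermaphrodite share.

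Against mir-35 itself, the founding member of the family, mir-246 was close to parity in hermaphrodite gonads, with 1.01, 0.787 and 1.04 counts for each mir-35 count. In male gonads the same ratio was 31.5, 27.4 and 6.81. For mir-39 the ratio rose from 1.14 ± 0.267 to 23.9 ± 8.90 (SD, n = 3 each), for mir-37 from 2.79 ± 0.534 to 50.4 ± 24.5, and for mir-36 from 4.58 ± 0.737 to 60.1 ± 35.4. In each of these 4 ratios the lowest male library lay above the highest hermaphrodite library. The mir-40 ratio showed the same order, on 1 or 2 male counts a library. The low-count member mir-42 went the other way, from 2418, 2306 and 2144 counts of mir-246 per mir-42 count in hermaphrodite libraries to 509 and 876 in male replicates 1 and 2. For mir-38 and mir-41, male counts of 0 left the male ratio undefined in at least 2 libraries. The mir-38 ratio in male replicate 3, on 2 counts, was 218, against 3502, 4262 and 5423 in hermaphrodite libraries. Members of this family resemble each other in sequence, and how reads that match several of them were assigned is not given in the sources used here.

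Against the abundant miRNAs outside the family the order was reversed. Each count of mir-82, a member of the mir-58 family and the most counted miRNA of the hermaphrodite libraries, was matched by 0.308, 0.236 and 0.334 counts of mir-246 in hermaphrodite and 0.0509, 0.0486 and 0.0159 in male libraries. The ratio to mir-81 was 10.3-fold lower in male gonads, that to mir-72 was 9.94-fold lower and that to mir-61 was 18.6-fold lower. Over the 113 other tested miRNAs with a count in every library, the ratio of mir-246 to the other miRNA was higher in every hermaphrodite than in every male library for 108. It was lower for 5, namely mir-35, mir-36, mir-37, mir-39 and mir-40. This separation follows from the large difference by which mir-246 was chosen and is given as a description.

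**Figure D3:**
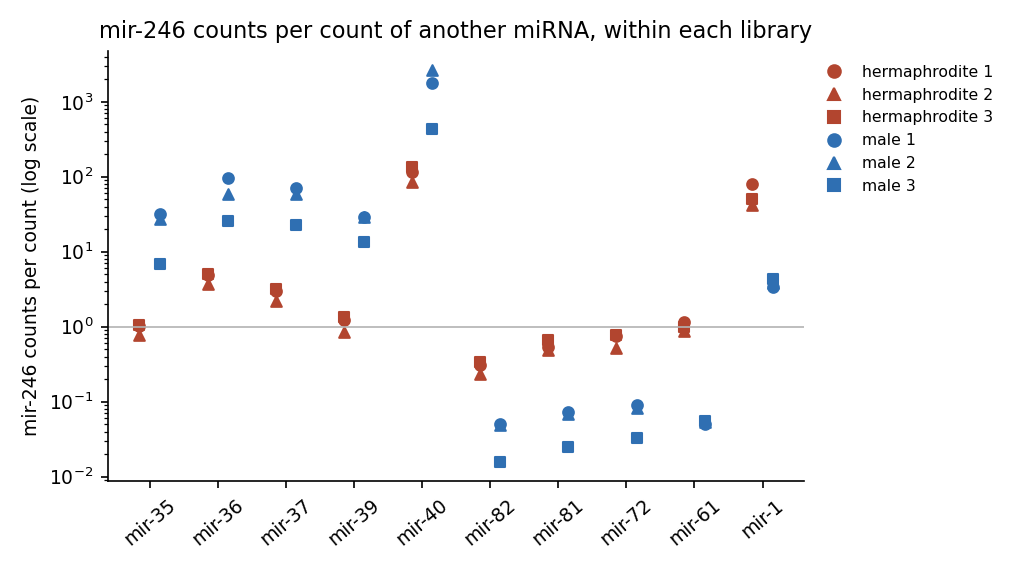
Counts of mir-246 for each count of another miRNA within a library (log axis), for hermaphrodite (red) and male (blue) libraries with a marker for each replicate; the grey line is a ratio of 1. Male libraries lie above hermaphrodite libraries for the 5 members of the mir-35 family shown and below them for the other 5 miRNAs; for mir-35 the values run from 0.787 to 1.04 in hermaphrodite and from 6.81 to 31.5 in male libraries.

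The position of mir-246 within a library was compared with that of its neighbours in mean CPM. In hermaphrodite gonads mir-61 stood 1 place above it, at 73193 ± 8390 CPM (SD, n = 3), and mir-39 1 place below it, at 64931 ± 5920 CPM. With 72944 ± 11325 CPM, mir-246 differed from both by less than its own spread. In male gonads the neighbours were mir-34 at 5380 ± 1271 CPM and mir-66 at 3645 ± 1448 CPM, around mir-246 at 4571 ± 2420 CPM, and these differences were also within the spread. Counts of different miRNAs depend on how well each is ligated to adapters, so this is an order of counts rather than of molecules.

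Male replicate 3 stood apart. Its share of mir-246 was 3.36-fold lower than the mean of the other male libraries, and 2.71-fold lower in scaled CPM. Of 116 tested miRNAs with a mean of at least 10 CPM in male libraries and a count in replicate 3, mir-246 was the 20th from the lowest by this measure. The share of the mir-35 family was 1.09-fold lower there, beside the 3.36-fold lower share of mir-246. The muscle miRNA mir-1 also had a low value in that library, with 1242, 965 and 333 scaled CPM in male replicates 1 to 3. The same order of lowest library held for mir-60, at 1452, 943 and 220, and for lsy-6, at 9.39, 28.0 and 6.66. In contrast mir-228 was highest there, at 8246, 8675 and 16048. Counts of mir-246 for each mir-1 count were 3.37, 3.81 and 4.36 in these libraries, a narrow range, against 81.0, 42.5 and 50.5 in hermaphrodite libraries. Likewise 0.0510, 0.0543 and 0.0556 counts of mir-246 were found for each mir-61 count in male libraries. The listed markers of tissue outside the germline other than mir-1 did not keep such a ratio, and mir-61 is not among those markers. There were 2.88, 3.90 and 6.61 counts of mir-246 for each count of the intestinal mir-60 and 0.507, 0.424 and 0.0904 for each count of mir-228. For the neuronal lsy-6, on 8, 20 and 2 male counts, there were 446, 131 and 218. The partners mir-1 and mir-61 were picked after their values were seen.

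Markers of tissue outside the germline differed between the sexes in mixed directions. The list held mir-1 (muscle), mir-60 (intestine), lsy-6 and mir-124 (neurons) and mir-228 (glia and hypodermis). Of the 5, 4 were tested. Under TMM scaling mir-228 was called higher in male gonads, mir-1 was called lower and mir-60 was not called. Among all tested miRNAs 30.6% were called higher and 25.0% lower. As lsy-6 passed the filter on low counts only through its male libraries, no call is read for it. Together the 5 markers took 0.463% to 0.541% of hermaphrodite and 1.56% to 2.03% of male counts, most of it from mir-228. The neuronal lsy-6 was thinly counted, with 12, 7 and 9 hermaphrodite and 8, 20 and 2 male counts. The neuronal mir-124 was near 0, with 3, 1 and 6 hermaphrodite and 1, 2 and 0 male counts. In scaled CPM mir-1 averaged 1894 ± 586 in hermaphrodite and 847 ± 466 in male gonads (SD, n = 3 each), while its mean CPM by library totals was 1327 and 1249. The part of these tissues in the level of mir-246 was not tested.

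The tested miRNAs whose levels over the 6 libraries were most like those of mir-246 were found by the root mean square difference of log2 scaled CPM after centring each miRNA on its mean. Over 123 others, the 5 nearest were mir-8196b at a difference of 0.88 log2 units, mir-42 at 0.98, mir-43 at 1.43, mir-40 at 1.501 and mir-4816 at 1.56. They share the fall between the sexes by construction, so no test is given. With 0 counts in each male library, mir-8196b has male values set by the prior count of 2, so its distance and first place depend on that setting, as in part do those of mir-42 and mir-40 with their few male counts. Their levels were far below that of mir-246. In scaled CPM mir-8196b stood at 25.99, 15.2 and 30.6 in hermaphrodite libraries and 0 in each male library, and mir-42 at 45.5, 46.5 and 42.4 against 8.22, 4.197 and 0. For mir-43, annotated beside mir-42 on chromosome II, the values were 201, 280 and 158 against 35.2, 29.4 and 36.6. At mir-4816 they were 128, 119 and 80.4 against 42.3, 22.4 and 13.3, so that male replicate 3 was the lowest library for mir-4816, mir-42 and mir-246. Ranking by correlation instead of distance gave mir-39, mir-59, mir-37, mir-36 and mir-66, with 0 of the 5 kept.

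**Figure D4:**
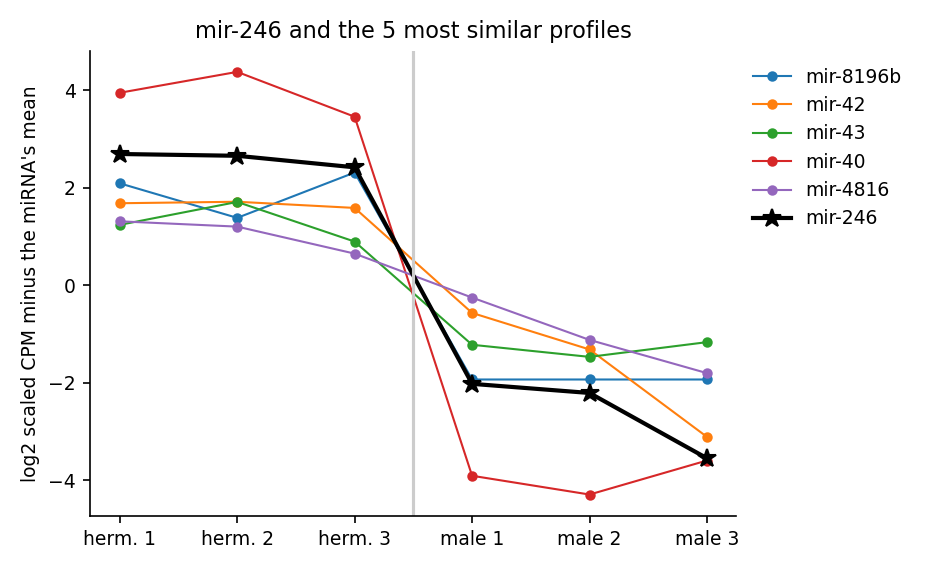
Log2 scaled CPM minus each miRNA's own mean in the 6 libraries, for mir-246 (black stars) and the 5 miRNAs with the most similar profile. All 6 lines drop from hermaphrodite to male libraries. The lines of mir-246, mir-42 and mir-4816 drop again in male replicate 3, where mir-42 had a count of 0, while mir-8196b was at 0 in each male library.

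The nearest annotated miRNA genes on the chromosome of mir-246 were not called lower in male gonads. On the 5′ side lies mir-2210, on the same strand, with 4, 5 and 10 counts in hermaphrodite and 28, 9 and 25 counts in male libraries. It was higher in male gonads, with 3.64 ± 1.39 against 42.9 ± 36.4 scaled CPM (SD, n = 3 each) and non-overlapping libraries. The fitted difference was 3.42 log2 units (SE 0.66) and kept its sign in 18 alternatives. Only its male libraries brought mir-2210 past the filter on low counts. Its test is therefore not independent of that difference, and no p is given. The size rested in part on male replicate 3, without which the difference was 2.26 log2 units. On the 3′ side lies mir-232, on the opposite strand, with 28, 31 and 33 hermaphrodite counts and 18, 30 and 1 male counts. Its libraries overlapped between the sexes. Its fitted difference of 0.38 log2 units (SE 0.58) had a Benjamini-Hochberg adjusted p of 0.617 in the quasi-likelihood test of edgeR. Both miRNAs are thinly counted, and the sign of mir-232 was reversed in 5 of 18 alternatives.

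Other miRNAs with a known part in adult lifespan or stress resistance were compared as a group beside mir-246. The list was not sorted by whether a member lengthens or shortens life, so it is not a class of like effect. Of 8 listed, 7 were tested. In male gonads 4 were higher, lin-4, mir-34, mir-228 and mir-239a, and mir-239b was lower, while mir-71 and mir-238 were not called. This is 4 of 7 higher, beside 30.6% of all tested miRNAs, and its median difference was 1.02 log2 units beside 0.15 for all tested miRNAs. The list was drawn up with earlier results of these data known, and its calls depended on the scaling and on single libraries. The number called higher in male gonads was 0 when TMM left out the mir-35 family, 0 without hermaphrodite replicate 2, 0 without hermaphrodite replicate 3 and 1 without hermaphrodite replicate 1. With RLE scaling it was 2, and with library totals 6, where 69 of the 124 tested miRNAs were called higher in male gonads.

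The heterochronic miRNA lin-4, which represses lin-14 and whose loss shortens life, stood at 321, 387 and 302 scaled CPM in hermaphrodite and 696, 652 and 1142 in male libraries. Male libraries lay above hermaphrodite libraries, by a fitted 1.30 log2 units (SE 0.42) with a Benjamini-Hochberg adjusted p of 0.00465 in the quasi-likelihood test of edgeR. That call was lost in 4 of 18 alternatives, when TMM left out the mir-35 family and without hermaphrodite replicate 1, 2 or 3, with adjusted p-values from 0.000189 to 0.116 over all alternatives. Without male replicate 3, its highest library, the difference was 0.70 log2 units. For mir-228, studied in dietary restriction, the hermaphrodite values were 5197, 5201 and 3762 scaled CPM and the male values 8246, 8675 and 16048. The difference was 1.22 log2 units (SE 0.39) at an edgeR adjusted p of 0.00458, and the call was lost in 5 of 18 alternatives, among them those without hermaphrodite replicate 2 or 3. Without male replicate 3, its highest library, the difference was 0.55 log2 units.

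The stress-response miRNA mir-34 stood at 1467 to 2395 scaled CPM in hermaphrodite and 3254 to 4694 in male libraries, without overlap. It was 1.02 log2 units higher in male gonads (SE 0.40) at an edgeR adjusted p of 0.0227. The call was lost in 7 of 18 alternatives, among them those without hermaphrodite replicate 1, 2 or 3 or male replicate 1. The longevity miRNA mir-71 stood at 2079 to 4510 against 4662 to 4917 scaled CPM, and its difference of 0.65 log2 units (SE 0.40) was not called, at an edgeR adjusted p of 0.156. A male increase was called in 3 alternatives, those with upper-quartile scaling, library totals and no filter.

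The remaining members were thinly counted. Deletion of mir-238 is known to shorten life, as deletion of mir-246 does, and mir-238 had 38 to 61 counts in hermaphrodite and 17 to 30 in male libraries. Its difference of 0.42 log2 units (SE 0.58) had an edgeR adjusted p of 0.587, and whether it differed from that of mir-246 was not tested. With library totals mir-238 was called higher in male gonads, at 1.37 log2 units and an edgeR adjusted p of 0.0147, the lowest of alternatives that reached 0.985. Its sign was reversed without hermaphrodite replicate 2, at -0.10, and without male replicate 3, at -0.32. The paralogs mir-239a and mir-239b are similar in sequence, and their separate counts are uncertain. In male gonads mir-239b was lower, at 100 ± 37.0 against 32.6 ± 8.26 scaled CPM (SD, n = 3 each) and a difference of -1.59 log2 units (SE 0.57) at an edgeR adjusted p of 0.0125. That call was lost with library totals and with the replicate number as a block, and without hermaphrodite replicate 2 the difference was -2.34 log2 units. The call of mir-239a as higher, at 1.35 log2 units (SE 0.58) and an edgeR adjusted p of 0.0398, was lost in 13 of 18 alternatives, among them those without any of the hermaphrodite libraries and without male replicate 1 or 2. Also listed, mir-80 was not tested, with 2, 1 and 0 hermaphrodite and 0, 0 and 2 male counts, so a difference was not detectable.

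**Figure D5:**
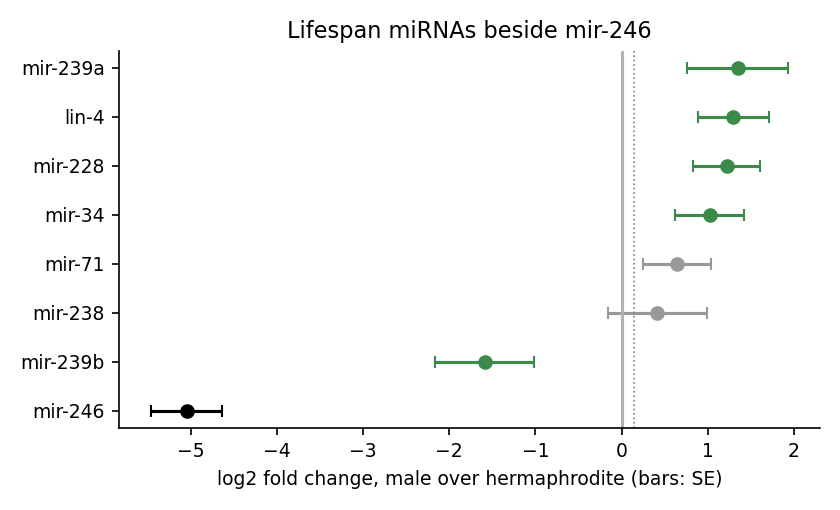
Log2 fold change of male over hermaphrodite gonads with its standard error (bars) for mir-246 (black) and the 7 tested members of the lifespan list, green where the adjusted p was under 0.05 and grey otherwise; the dotted line is the median of all tested miRNAs. The list members lie between -1.59 for mir-239b and 1.35 for mir-239a, and mir-246 lies at -5.05.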

How the data were processed

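TruSeq small RNA libraries were made from total RNA purified on columns, per the labels' protocols. The submitters' processing notes name Bowtie2, HTSeq and DESeq2, with no version or role, and ce10 and miRBase 22 appear in the file names. The authors deposited whole-number read counts for 253 miRNA genes per library, and a table of normalized values, used as a signal, which equals the deposited counts divided by 1 size factor per library. Groups came from the sample titles.

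Here, filterByExpr (minimum count 10) kept 124 miRNAs, libraries were TMM-scaled, and edgeR 4.0.16 in R 4.3.3 fitted a robust quasi-likelihood model with sex as the term. Tests were two-sided, with Benjamini-Hochberg adjustment over all tested miRNAs and a threshold of 0.05. Standard errors (SE) are the size of a log2 fold change over the root of its F statistic. Log2 scaled CPM used a prior count of 2. Shares have 95% Wilson intervals (scipy 1.17.1). Names, strands and neighbours came from the WBcel235 annotation (Ensembl release 115), whose build differs from the one in the file names, so no coordinates are given.

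The member, lists and tests were chosen with earlier results of these data known. Named besides mir-246 were the mir-35 family, the lifespan list, the 5 nearest profiles, neighbours on the chromosome, in mean CPM and in log2 fold change, and marker lists. Alternatives were other scalings, filters, DESeq2 1.42.0, limma 3.58.1 (voom, and trend on the authors' values with a pseudocount of 1 or 0.1), a replicate block and each library left out. miRNAs that share the mature seed of mir-246 were not analysed here.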

Additional observations from a re-analysis of the deposited data

How the results depend on the processing

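The log2 fold change of mir-246 kept its sign in 18 alternatives, from -5.59 to -3.99. It moved by more than the spread between replicates with library totals, to -3.99. The share of mir-246 in hermaphrodite counts was 8.94% of a total without the mir-35 family and 14.2% of one without mir-82, mir-81 and mir-72. With mir-35 alone as the denominator there were 94.7 counts of mir-246 per 100 in hermaphrodite and 2191 in male gonads. Of the 5 most similar miRNAs, 0 were kept by correlation and 3 to 5 when a library was left out. The lifespan list had 5 calls, and 3 with RLE scaling and with the authors' values at either pseudocount, 1 with TMM without the mir-35 family, 2 with the replicate block and 1 to 5 with a library left out. The sign of mir-238 was reversed at -0.087 with TMM without the mir-35 family, and lay between -0.32 and 0.45 with a library left out. For mir-232 it was reversed at -0.14 with TMM without the mir-35 family, -0.086 with limma-voom, and -0.58 and -0.67 with the authors' values at pseudocounts of 1 and 0.1, and it lay between -0.73 and 0.49 with a library left out. The causes were not tested. Same-numbered libraries of the sexes did not deviate together (correlations -0.12, -0.05 and -0.27), so the numbers were not taken as pairs. With the replicate number as a block, 58 rather than 69 miRNAs were called and mir-246 was at -5.18. Male depth limits what can be said of miRNAs with few male counts.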
